A study of Mus musculus with 19 samples.

Results

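The 10 genes described here, Itgax, Clec7a, Cst7, Axl, Spp1, Gpnmb, Csf1, St14, Lpl and Ch25h, mark the state that brain microglia take on around amyloid plaques, often called disease-associated microglia. They were chosen by name from that state with earlier results of these libraries known, so the difference between transgenic and wild-type animals is given for them as a description, and the numbers of genes called in it are printed beside the share of all genes called, with nothing concluded from them. All 10 were found among 48709 genes counted in the files, and all 10 passed a filter of 5 or more counts in 50% or more of the libraries, which 19297 genes passed. RNA came from the hippocampal CA1 region of mice that were 7 months old. WT control (n = 6) were wild-type littermates, and APP control (n = 6) were APPPS1-21 mice, a transgenic amyloid model that carries Thy1-APPSw, so that human mutant APP is made from the Thy1 promoter, mainly in neurons. APP anti-miR-mix (n = 7) were APPPS1-21 mice whose dorsal hippocampus was injected with lipid nanoparticles holding inhibitors of the microRNAs miR-148a-3p, miR-146a-5p and miR-181a-5p. Both control groups received scrambled oligonucleotides in the same particles, according to the study, although the titles of the wild-type libraries also contain the name of the mix. Each library was counted as 1 animal.

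Microglia are the resident macrophages of the brain. Resting microglia carry a set of homeostatic genes such as Tmem119, P2ry12 and Cx3cr1. Near amyloid plaques, cells that sense lipid and debris through the receptor Trem2 switch on phagocytic, lysosomal and lipid-handling genes, and the genes described here belong to that programme. By role they fall into surface receptors (Itgax, Clec7a, Axl), a protease and a protease inhibitor (St14, Cst7), secreted or shed ligands (Csf1, Spp1, Gpnmb) and lipid enzymes (Lpl, Ch25h). The tissue was a bulk dissection, in which fewer cells of a type and less RNA per cell cannot be told apart.

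Total counts ranged from 19362343 to 37018917 per library. Microglial RNA was present throughout: all 16 genes of a homeostatic microglia list were detected, and the microglial marker Tmem119 had normalized counts of 717 to 1106 in WT control and 678 to 1626 in APP control. Normalized counts are raw counts divided by the size factor of the library. The homeostatic list is used below as the mean of log2 values, in which each gene weighs the same, because its summed counts are mostly those of Cst3, Rhob and Mef2c (means of 31998, 6807 and 4255 of 55893 in WT control), which other brain cells express too. Mouse Thy1, which checks the genotype because Thy1-APPSw carries its promoter, had between 18117 and 20734 normalized counts in WT control and between 36153 and 62866 in APP control, with 43203 to 54141 in APP anti-miR-mix, so no transgenic library overlapped the wild type. The library APP control 5 stood apart from its group in other cells. It held the highest sum of the monocyte and neutrophil list, 3057 normalized counts against 37.3 to 118 in the other APP control libraries, and the lowest mean log2 level of the homeostatic microglia list in its group, and the main results that it moved are given with and without it. The log2 fold changes of the 10 genes against WT control moved by less than 1.5 times when it was left out.

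**Figure D1:**
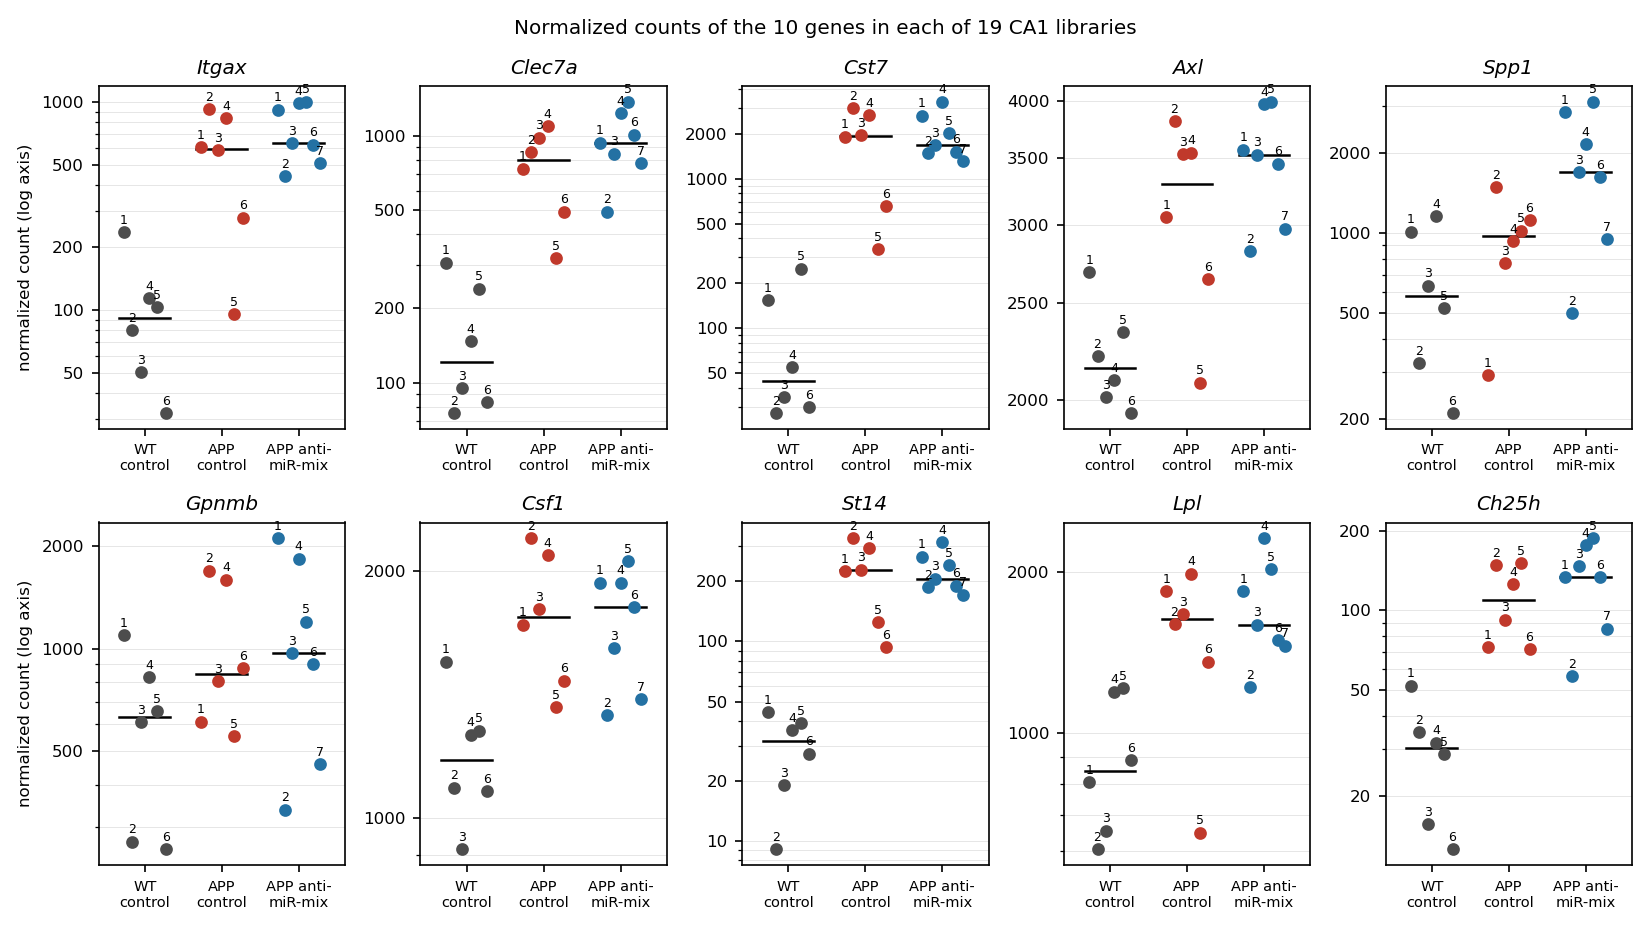
Normalized counts of the 10 genes, 1 panel per gene, on a log axis with 1 point per library, numbered by replicate, and the group median as a line. Cst7, St14, Clec7a and Ch25h show no overlap between the 6 WT control and 6 APP control libraries, while Spp1 and Gpnmb overlap widely, and APP control 5 lies within the WT control range or just above it except in the panels of Ch25h, St14 and Cst7, where it is 2.90, 2.82 and 1.35 times the highest WT control value.

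In APP control, Cst7, St14, Itgax, Clec7a and Ch25h were higher than in WT control by 3.75 to 19.1 times, and Lpl, Csf1 and Axl by 1.41 to 1.69 times. These 8 of the 10 genes passed a DESeq2 adjusted p threshold of 0.05 over all genes tested, all with higher levels in APP control, whereas Spp1 and Gpnmb did not. Among all genes tested 3.66% were called higher in this comparison, and nothing is read from the count of 8 because the genes were chosen with this contrast known. The median log2 fold change was 1.33 over the 10 genes and -0.01 over all genes tested. In 4 of the 10 every APP control library lay above every WT control library, against 1.2% of all genes tested. Without APP control 5 this held for 6 of the 10, with Itgax and Lpl added, against 1.92% of all genes.

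The surface receptors differed in the size of the difference. Itgax (ENSMUSG00000030789, chromosome 7, 128129547 to 128150657), which encodes CD11c, an integrin chain of complement receptor 4, had a lowest, median and highest normalized count of 32.0, 91.9 and 236 in WT control and 95.6, 597 and 927 in APP control. The lowest APP control value, that of APP control 5, lay within the wild-type range, and the other 5 libraries lay above it. It differed by a log2 fold change of 2.43 (SE 0.48), and 2.65 without APP control 5. Clec7a (ENSMUSG00000079293, chromosome 6, 129461591 to 129472779), encoding the beta-glucan receptor dectin-1, ran through 75.6, 121 and 306 in WT control and 320, 798 and 1093 in APP control, with no overlap. Its log2 fold change was 2.24 (SE 0.37) and became 2.89 when WT control 1 and WT control 5, the wild-type libraries with the highest Clec7a, were left out together. Axl (ENSMUSG00000002602, chromosome 7, 25757273 to 25788705), a TAM receptor tyrosine kinase that binds phosphatidylserine on dying cells through bridging ligands, ran through 1939, 2152 and 2690 in WT control and 2080, 3295 and 3818 in APP control. Here APP control 5 and 6 fell below the highest wild-type library, WT control 1. Its log2 fold change was 0.49 (SE 0.13).

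Partners of these receptors were listed by known function and not by how they moved. Itgb2, the beta-2 chain that pairs with CD11c, was called higher in APP control with a log2 fold change of 1.11, as was Itgam, the CD11b chain, with 0.82. Itgal, the alpha chain of LFA-1, was not called at 0.09. Of 5 genes that act downstream of dectin-1, the kinase Syk (0.44), the phospholipase Plcg2 (0.89) and the adaptor Card9 (0.75) were called higher, while Bcl10 (0.08) and Malt1 (0.02) were not called. Of 4 partners of Axl, its relative Mertk (0.32) and the bridging ligand Pros1 (0.71) were called higher, the relative Tyro3 was called lower at -0.26, and the ligand Gas6 was not called at 0.06.

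Cst7 and St14 had the largest differences of the 10 genes. Cst7 (ENSMUSG00000068129, chromosome 2, 150570415 to 150578944) encodes cystatin F, which inhibits lysosomal cysteine proteases. It had a lowest, median and highest normalized count of 27.2, 44.8 and 251 in WT control and 338, 1936 and 2989 in APP control. WT control 5, at 251, and WT control 1, at 154, were far above the other 4 wild-type libraries, which ran from 27.2 to 54.9, and APP control 5, at 338, and APP control 6, at 657, were far below the other 4 APP control libraries, which all reached 1917 or more. The log2 fold change was 4.25 (SE 0.57), with 4.86 without WT control 5 and 5.58 without both WT control 1 and WT control 5. St14 (ENSMUSG00000031995, chromosome 9, 31089402 to 31131853), encoding the membrane serine protease matriptase, ran through 9.07, 31.7 and 44.1 in WT control and 93.4, 227 and 330 in APP control, with a log2 fold change of 2.86 (SE 0.30), or 2.03 with limma on the deposited table, and no overlap.

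The 4 proteases listed as partners of cystatin F were called higher in APP control: Ctsh with a log2 fold change of 0.94, Ctsl with 0.70, Ctsc with 0.66 and Lgmn with 0.41. Among 4 partners of matriptase the inhibitor Spint1 (0.93) was called higher, and the inhibitor Spint2 (-0.03) and the substrate Prss8 (0.15) were not called. The substrate F2rl1 (0.18) was given no adjusted p. It had means of 4.96 and 5.54 normalized counts in WT control and APP control, so little can be read from it.

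The secreted and shed ligands gave small or uncalled differences. Csf1 (ENSMUSG00000014599, chromosome 3, 107741048 to 107760469), the growth factor on which microglia depend, had a lowest, median and highest normalized count of 915, 1175 and 1550 in WT control and 1363, 1759 and 2192 in APP control. The APP control 5 and 6 libraries lay below WT control 1, and the log2 fold change was 0.57 (SE 0.14). Its receptor Csf1r was called higher as well (0.92), and Il34, the other ligand of that receptor, was not called at -0.04.

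Spp1 (ENSMUSG00000029304, chromosome 5, 104435118 to 104441050), encoding osteopontin, ran through 211, 579 and 1163 in WT control and 293, 980 and 1493 in APP control. APP control 2 alone exceeded the highest wild-type library, and APP control 1 lay below all wild-type libraries but WT control 6. The log2 fold change of 0.54 had an SE of 0.47 and a 95% confidence interval from -0.38 to 1.46. Of 6 receptors of osteopontin, the integrin chains Itgb3 (1.08) and Itgb5 (0.82) were called higher, and Cd44 (0.29), Itgb1 (0.14), Itga9 (0.07) and Itgav (-0.11) were not called. Gpnmb (ENSMUSG00000029816, chromosome 6, 49036546 to 49070929), a lysosomal and cell-surface glycoprotein whose ectodomain is shed, ran through 258, 633 and 1095 in WT control and 555, 841 and 1691 in APP control, and APP control 2 and 4 alone exceeded the highest wild-type library. Its log2 fold change was 0.72 (SE 0.45, 95% confidence interval -0.16 to 1.60). Among its partners the coreceptor Sdc4 (0.32) was called higher, and the transcription factors Mitf (0.06), Tfe3 (0.09) and Tfeb (0.23), which are known to drive Gpnmb, were not called.

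The lipid enzymes came out between these. Lpl (ENSMUSG00000015568, chromosome 8, 68880491 to 68907448), lipoprotein lipase, had a lowest, median and highest normalized count of 604, 848 and 1209 in WT control and 650, 1630 and 1982 in APP control. The value of APP control 5 lay among the wild-type values and the other 5 libraries lay above all of them. The log2 fold change was 0.76 (SE 0.22). Its call was the least secure of the 8, since it was lost with edgeR, with limma on the deposited table, with a whole number per library recovered from that table as a factor, and when WT control 2 or 3 or APP control 1, 3 or 4 was left out. None of the 5 tested partners of Lpl was called, and these were the receptors Lrp1 (0.00) and Vldlr (-0.08), the maturation factors Lmf1 (-0.02) and Sel1l (-0.15) and the inhibitor Angptl4 (0.28). Ch25h (ENSMUSG00000050370, chromosome 19, 34473778 to 34475164), which makes 25-hydroxycholesterol, ran through 12.6, 30.2 and 52.0 in WT control and 71.4, 109 and 151 in APP control, with no overlap and a log2 fold change of 1.91 (SE 0.31), or 1.27 with limma on the deposited table. It shares 159 exonic bases with Gm26902 on the opposite strand, and the strand setting of the counting was not stated, so reads of both cannot be told apart. Of 5 tested genes in its pathway, the receptor Gpr183, whose ligand derives from 25-hydroxycholesterol, was called higher (1.56), and the enzyme Cyp7b1 (0.12), the liver X receptors Nr1h2 (0.01) and Nr1h3 (0.08) and their target Abca1 (0.16) were not called.

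**Figure D2:**
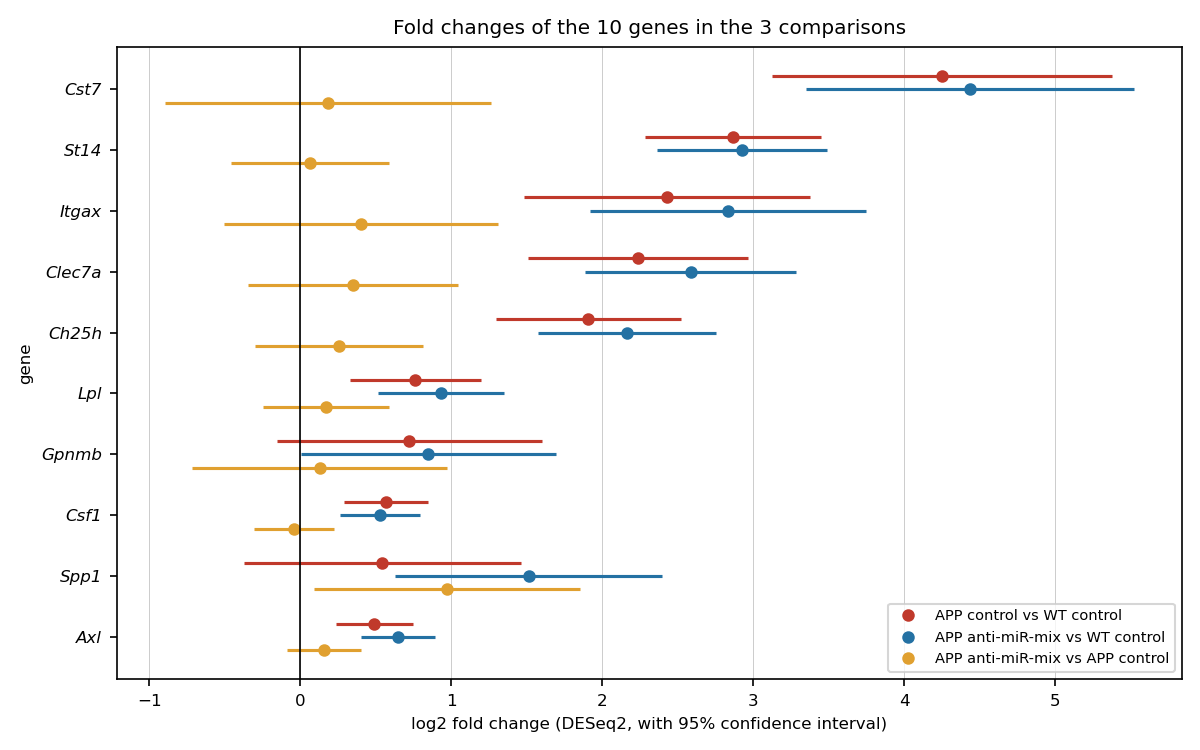
DESeq2 log2 fold changes with 95% confidence intervals for the 10 genes in the 3 comparisons, ordered by APP control against WT control, where a value of 0 is no change. The fold changes of APP control against WT control run from 0.49 for Axl to 4.25 for Cst7, and between the transgenic groups they lie close to 0, with Spp1 at 0.97 the farthest from it.

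To compare genes with each other, counts were divided by exonic length and library total (RPKM). In WT control the highest mean level was that of Axl, 14.9 RPKM, followed by Spp1 at 13.3, Csf1 at 7.66, Gpnmb at 3.23, Cst7 at 3.16 and Lpl at 2.87, while St14, at 0.129 RPKM, was the lowest. In WT control neighbours in this order differed by more than the larger of their SDs in 3 places, between Csf1 and Gpnmb, between Clec7a and Itgax and between Ch25h and St14. The other neighbours were not resolved, and genes farther apart in the order were not compared. In APP control Cst7 had the highest level at 61.8 RPKM, Axl and Spp1 followed at 21.4 and 19.8, and Clec7a passed Gpnmb and Lpl with 9.81 RPKM. The order of the lowest genes, Itgax at 4.00, Ch25h at 2.75 and St14 at 0.980 RPKM, was the same in APP anti-miR-mix. In APP control, neighbours in this order differed by more than the larger of their SDs between libraries in 3 places, between Cst7 and Axl, between Clec7a and Gpnmb and between Ch25h and St14, and the other neighbours did not.

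The 10 genes varied more between animals of 1 group than most genes did. The median SD of log2(normalized count + 1) over the 10 genes was highest in WT control at 0.82, with 0.68 in the APP control animals and 0.48 in those given the mix, and over all genes tested it was 0.19, 0.19 and 0.17. Without APP control 5 the APP control values were 0.554 for the 10 genes and 0.184 for all. Wide spread was also seen in other microglial genes. In APP control Csf1r had a mean of 8236 normalized counts (SD 2182), Laptm5 of 3569 (SD 1305) and Fcer1g of 983 (SD 342). The SD of all 10 genes exceeded the all-gene median in both transgenic groups, and that of 9 of the 10 did so in WT control, with Axl the exception. The high and low values came from the same animals. WT control 1 was the highest wild-type library in 7 of the 10 genes, APP control 2 was the highest of its group in 7, APP control 5 the lowest of its group in 7 and APP anti-miR-mix 2 the lowest of its group in 8. In APP control 5, 6 of the 10 genes were at or below the highest wild-type value, namely Itgax, Axl, Spp1, Gpnmb, Csf1 and Lpl, and in APP control 6 this held for Axl, Spp1, Gpnmb and Csf1.

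**Figure D3:**
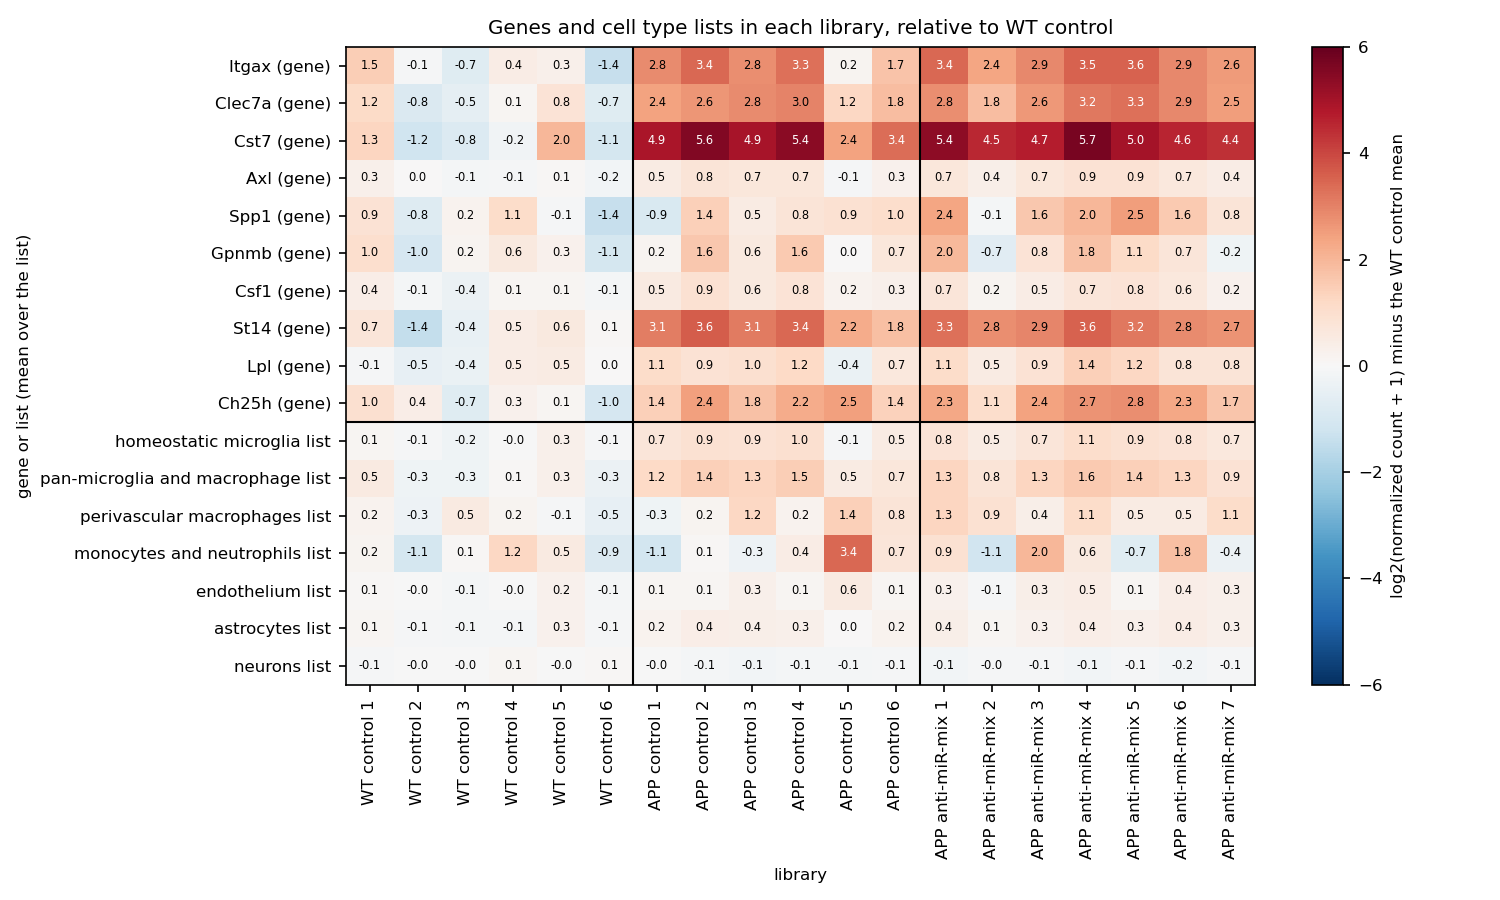
Each of the 10 genes and 7 cell type lists (rows) in each of the 19 libraries (columns), as log2(normalized count + 1) minus the WT control mean, with lists averaged over their genes. In APP control 5 Itgax, Axl, Gpnmb, Csf1, Lpl and the homeostatic microglia list are near the wild-type level, while Ch25h, Cst7 and St14 are 2.47, 2.41 and 2.22 above it and the monocyte and neutrophil list 3.4 above it.

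Other microglial genes were higher in APP control too. Of the 16 homeostatic genes 12 were called higher and none lower (median log2 fold change 0.73), with Cst3 (0.40) and Rhob (0.13, not called) among the most abundant. The pan-microglia and macrophage list was called higher in 10 of 10 (median 1.11), with Csf1r at 0.92, Laptm5 at 1.37 and Fcer1g at 1.41. Of the disease-associated genes outside the 10, 5 of 10 in the first stage were called higher, including Apoe (0.40) and Ctsb (0.43) but not Fth1 (0.29), and 9 of 15 tested genes of the second stage, including Ctsa (0.52), Ctsl (0.70) and Ctsz (1.32). Relative to the homeostatic list of the same library, the difference between APP control and WT control on the log2 scale was 3.79 for Cst7, 2.24 for St14, 1.73 for Itgax, 1.69 for Clec7a and 1.32 for Ch25h. For the other 5 genes it lay between -0.17 (Axl) and 0.14 (Gpnmb). The result depends on the list taken as reference. Relative to the pan-microglia and macrophage list the same 5 genes had negative values, from -0.63 for Axl to -0.32 for Gpnmb, and the first 5 had smaller ones, 3.33 for Cst7, 1.78 for St14, 1.27 for Itgax, 1.23 for Clec7a and 0.86 for Ch25h. Without APP control 5 the differences from the homeostatic list were 4.05 for Cst7, 2.23 for St14, 2.03 for Itgax, 1.76 for Clec7a and 1.07 for Ch25h, with the other 5 between -0.211 (Spp1) and 0.175 (Lpl), and those from the pan-microglia and macrophage list kept their signs. Some of the 10 genes, such as Axl, Csf1 and Lpl, are not confined to microglia, and markers of other cells moved too. Of 8 astrocyte genes Gfap was called higher (log2 fold change 1.44, with a mean of 18782 normalized counts in the wild type against 51113) and the other 7 were not called, and of 6 endothelial genes 2 were called higher, among them Flt1 (0.30). The perivascular macrophage list was called higher in 2 of 6 genes, and its summed normalized count was 121 to 229 in WT control and 145 to 440 in APP control. Of the 5 tested genes of the monocyte and neutrophil list, S100a8 and S100a9 were given no adjusted p and so could not be called, and the other 3 were not called. Its summed counts were 37.7 to 184 in WT control and 37.3 to 3057 in APP control, where all libraries but APP control 5 were at 118 or below. The part of these cell types in the levels of the 10 genes was not tested.

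The comparison of APP anti-miR-mix with APP control asks whether the inhibitors of the 3 microRNAs altered these genes in the transgenic hippocampus. The mature microRNAs are shown because the seed, bases 2 to 8, in capitals, is the part that pairs with target messages. The 3 seeds were all different. Sequences and positions are those of RefSeq on GRCm38.p6, and miR-181a-5p is made from a pair of genes, at chr1:137966468-137966490 (+) and chr2:38852741-38852763 (+), with miR-146a-5p at chr11:43374435-43374456 (-) and miR-148a-3p at chr6:51269829-51269850 (-).
miR-181a-5p: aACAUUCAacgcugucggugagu
miR-146a-5p: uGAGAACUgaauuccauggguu
miR-148a-3p: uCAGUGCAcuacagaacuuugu

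The inhibitors used by the study are printed beside them, with the bases that pair with the seed in capitals. Each is a perfect complement of its microRNA. The inhibitor of miR-181a-5p (21 bases) covers bases 3 to 23, that of miR-146a-5p (20 bases) bases 2 to 21 and that of miR-148a-3p (19 bases) bases 3 to 21, counted from the 5′ end of the microRNA, and the control (19 bases) is a complement of none of the 3.
inhibitor of miR-181a-5p: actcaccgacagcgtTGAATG
inhibitor of miR-146a-5p: acccatggaattcAGTTCTC
inhibitor of miR-148a-3p: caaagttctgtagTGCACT
control for the inhibitors: taacacgtctatacgccca

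The 3′ untranslated regions of the 10 genes were searched for the 7 letters that pair with each seed, in the annotated coding transcript with the longest such region of each gene. The letters AGTTCTC, for miR-146a-5p, were found in 1 gene, TGCACTG, for miR-148a-3p, in 3 genes at 4 places, and TGAATGT, for miR-181a-5p, in none. The same letters were found in 12.3%, 14.7% and 17.8% of 15468 tested genes. The matches lay in Axl, Csf1 and Lpl, and the other 7 genes held none in these regions, whose median length was 926.5 bases in the 10 genes and 1138 in all genes searched. A match is a description of letters and not a shown binding site. The stretches are given in the sense of the transcript with the matching letters in capitals, from chr7:25758413-25758442 (-) and chr7:25757414-25757443 (-) for Axl, chr3:107742357-107742386 (-) and chr3:107742248-107742277 (-) for Csf1, and chr8:68906020-68906049 (+) for Lpl.
Axl, miR-146a-5p: gagtttagagttcaaAGTTCTCaaagatga
Axl, miR-148a-3p: cttaagcctgtgcgaTGCACTGggaatgcc
Csf1, miR-148a-3p, first place: catgaaggaagccatTGCACTGtgaatact
Csf1, miR-148a-3p, second place: ctctcctcggcttctTGCACTGagctggcc
Lpl, miR-148a-3p: atcaagttcaaattcTGCACTGtgcaaagt

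None of the 10 genes was called between the transgenic groups, nor was any of the 19297 genes tested (0.0%). By DESeq2 552 genes had an unadjusted p under 0.05, and by edgeR, which also called 0 genes, 572 had. The log2 fold change was positive in 9 of the 10 genes, with a median of 0.18 over the 10 and of -0.00147 over all genes tested, and the DESeq2 adjusted p was 0.99995 for each of the 10. The median over the 10 genes stayed positive without APP control 5 (0.04) or without APP control 6 (0.13). Leaving out both was an alternative chosen after their low values were seen, a choice that itself tends to lower the difference. The low libraries of APP anti-miR-mix were not left out together. Without APP control 5 and 6 the median over the 10 genes was -0.03, with negative values in 7 genes: Itgax, Cst7, Axl, Gpnmb, Csf1, St14 and Lpl. Over all genes 14 were then called, none of them among the 10, and with any single library left out at most 3 were.

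Spp1 had the largest difference. In APP anti-miR-mix its lowest, median and highest normalized counts were 501, 1693 and 3125, against 293, 980 and 1493 in APP control, so that 5 of the 7 libraries lay above every APP control library and the other 2, replicates 2 and 7, lay within their range. The log2 fold change was 0.97 (SE 0.45, 95% confidence interval 0.09 to 1.85), with an unadjusted p of 0.0312 in DESeq2, the only one of the 10 under 0.05, which did not withstand adjustment over all genes. It ranged from 0.785 to 1.15 when single libraries were left out and was 1.08 without APP control 5 and 6. Of the osteopontin receptors, Cd44 had a log2 fold change of 0.47 and was not called, and the other 5 lay between -0.05 and 0.04.

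All 10 genes overlapped between the transgenic groups, and the others had smaller differences. Itgax had a lowest, median and highest normalized count of 440, 637 and 1006 in APP anti-miR-mix, and Clec7a of 492.8, 937 and 1375. Their log2 fold changes against APP control were 0.40 (SE 0.46) and 0.35 (SE 0.35). Cst7 ran through 1309, 1676 and 3294 and St14 through 172, 207 and 315, with log2 fold changes of 0.18 (SE 0.55) and 0.06 (SE 0.27). For both genes the lowest value of this group was above APP control 5 and 6 and below the other 4 APP control libraries.

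The 3 genes with a seed match gave the narrowest intervals. Axl, at 2823, 3531 and 3993 in APP anti-miR-mix, had a log2 fold change of 0.16 with a 95% confidence interval from -0.09 to 0.40. Csf1, at 1335, 1807 and 2054, had -0.04 with an interval from -0.30 to 0.23, and Lpl, at 1216, 1590 and 2310, had 0.17 with an interval from -0.25 to 0.59. Gpnmb ran through 338, 968 and 2109, a wider span than in APP control on both sides, with a log2 fold change of 0.13 (SE 0.43). Ch25h ran through 56.6, 134 and 187, with 0.26 (SE 0.29).

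Against WT control, APP anti-miR-mix had 9 of the 10 genes called, all higher, where 5.59% of all genes tested were called higher. Gpnmb was the gene not called, with a log2 fold change of 0.85 (SE 0.43). In 7 of the 10 there was no overlap between the groups, a pattern found in 2.52% of all genes tested. This comparison shares its WT control libraries with the first. Markers of other cells were called higher in it too. These were 4 of 6 perivascular macrophage genes, 3 of 7 meningeal and fibroblast genes, 3 of 6 endothelial genes and 1 of 8 astrocyte genes. Of 8 neuron genes and 6 oligodendrocyte genes 0 were called. The part of these cells in the levels of the 10 genes was not tested. Side by side, the log2 fold changes against WT control were 2.83 in APP anti-miR-mix and 2.43 in APP control for Itgax, 4.44 and 4.25 for Cst7, 1.51 and 0.54 for Spp1 and 0.53 and 0.57 for Csf1.

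Whether the genes vary together between animals of 1 group was asked in the 13 transgenic libraries, on log2(normalized count + 1) with the group means removed. The share of correlated pairs among all genes tested was not worked out. The counts of pairs here and below are therefore not read as particular to these genes. The correlation was positive in 45 of 45 pairs of genes, with a median Pearson r of 0.759, and 32 pairs had a Benjamini-Hochberg adjusted permutation p under 0.05 over the 45 (31 with Spearman's rho). Itgax, Clec7a, Cst7, Axl, Csf1, St14 and Lpl were all correlated with each other beyond that threshold. The tightest pair was Itgax with Cst7, with r = 0.966 (permutation p = 3e-05, adjusted p = 0.00027), rho = 0.912 (permutation p = 0.00037, adjusted p = 0.00185) and r = 0.96 without the 2 libraries farthest from the median of Itgax.

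Spp1 and Ch25h had fewer correlations past the threshold with that block. Spp1 was correlated beyond the threshold with Ch25h (r = 0.812, permutation p = 0.00122, adjusted p = 0.00305, rho = 0.725, permutation p = 0.00991, adjusted p = 0.0159) and with Gpnmb (r = 0.792, permutation p = 0.00176, adjusted p = 0.00417, rho = 0.786, permutation p = 0.00437, adjusted p = 0.00855), and r was 0.617 and 0.722 without the 2 libraries farthest from the median of Spp1. With Csf1 it passed by rho (0.626, adjusted permutation p = 0.0434) but not by r (0.576, adjusted permutation p = 0.0664). Its lowest value was that with Cst7 (r = 0.121, permutation p = 0.705, rho = 0.302, permutation p = 0.286), at the same adjusted p of 0.705 for r and 0.293 for rho. Ch25h was also correlated with Gpnmb (r = 0.703, adjusted permutation p = 0.0219) and Csf1 (r = 0.63, adjusted permutation p = 0.0408), but by rho neither passed, with adjusted permutation p of 0.0505 and 0.089.

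The correlations of Ch25h depended on single animals. APP control 5 had the highest Ch25h of its group, 151 normalized counts, and the lowest Itgax, Clec7a, Cst7, Axl, Gpnmb, Csf1 and Lpl. Without it, Ch25h was correlated with all 9 other genes, with r from 0.635 for St14 to 0.923 for Axl, and 40 of 45 pairs passed the adjusted permutation threshold. The 5 pairs that still did not pass were those of Spp1 with Itgax (r = 0.503), Clec7a (0.572), Cst7 (0.287), St14 (0.257) and Lpl (0.45), with adjusted permutation p from 0.0729 to 0.419. Without APP anti-miR-mix 2, the library with the lowest values of its group, 27 of the 45 pairs passed and 43 were positive. Ch25h then passed with Spp1 alone by r (r = 0.689, adjusted permutation p = 0.0251) and with none by rho, with r of 0.539 for Gpnmb (adjusted permutation p = 0.121), 0.50 for Csf1 (adjusted permutation p = 0.179) and -0.0833 for Lpl (adjusted permutation p = 0.904), and its r with the homeostatic list was 0.0638 (adjusted permutation p = 0.896).

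**Figure D4:**
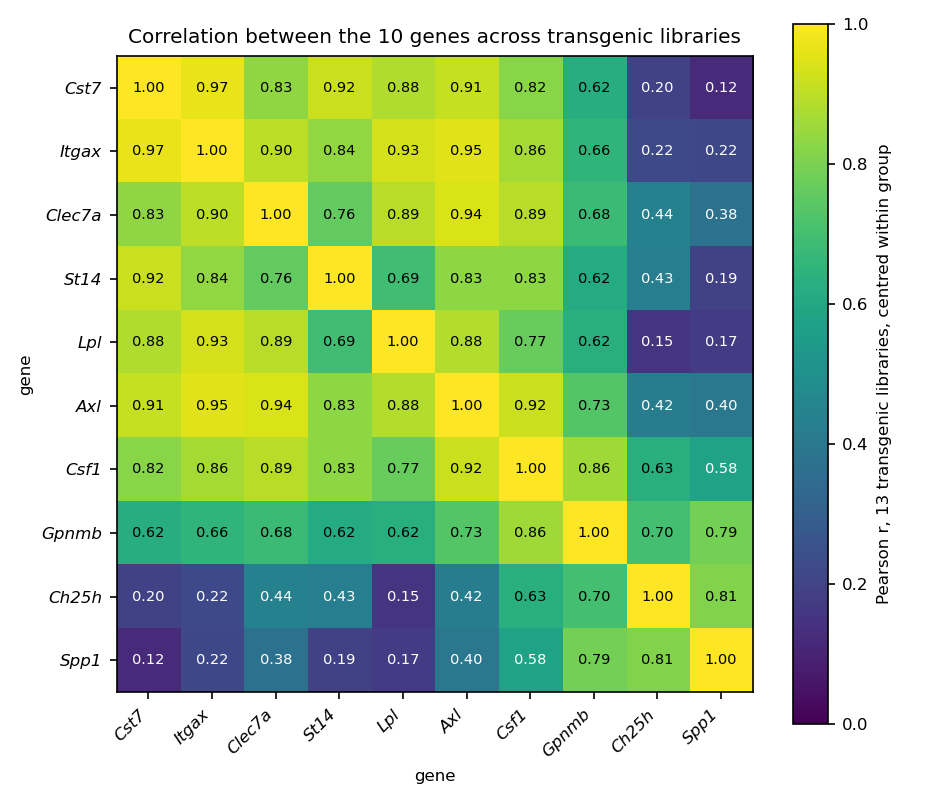
Pearson r between each pair of the 10 genes across the 13 transgenic libraries, on log2(normalized count + 1) with group means removed, in a colour scale from 0 to 1. The 7 genes from Cst7 to Csf1 form a block of high values with 0.966 at the top for Itgax and Cst7, and the rows of Ch25h and Spp1 are lower except against each other and Gpnmb.

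For the measures below the share over all genes was not worked out, so the counts are not read as particular to the 10. For most of the 10 genes the same animals were ordered alike by the homeostatic microglia list. Its mean log2 level was correlated with 8 of the 10 genes, all except Spp1 and Ch25h, with a median r of 0.889 over the 10 and the highest value for Itgax (r = 0.963, permutation p = 4e-05, adjusted p = 0.000267 over 40 relations, rho = 0.945, permutation p = 6e-05, adjusted p = 0.000533, and r = 0.897 without the 2 farthest libraries). Gfap, the intermediate filament of reactive astrocytes, was correlated with the same 8 genes, with r from 0.743 for Gpnmb to 0.939 for St14, and without APP control 5 also with Ch25h (r = 0.778, adjusted permutation p = 0.00423, against r = 0.474 and adjusted permutation p = 0.189 with it). For Ch25h the correlation with the homeostatic list was 0.26 (adjusted permutation p = 0.448) with all libraries and 0.859 (adjusted permutation p = 0.00245) without APP control 5. For Spp1 it was 0.258 (adjusted permutation p = 0.447) and 0.557 (adjusted permutation p = 0.128). Thy1, as a measure of the level of the transgene promoter, was correlated beyond the threshold by r with St14 (r = 0.863, adjusted permutation p = 0.00689). By rho it passed with Itgax, Cst7, St14 and Lpl (adjusted permutation p from 0.0233 to 0.0412), and without APP control 5 it passed by r with Itgax, Cst7 and St14 (adjusted permutation p from 0.0257 to 0.0496) and by rho with none (lowest adjusted permutation p = 0.065). The normalized counts of App, taken on the mouse gene, were 49038 to 54801 in WT control and 67218 to 80752 in APP control. Whether they hold reads of the transgene was not tested. By r, App was correlated beyond the threshold with none of the 10 (r from -0.25 to 0.53, lowest adjusted permutation p = 0.201).

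**Figure D5:**
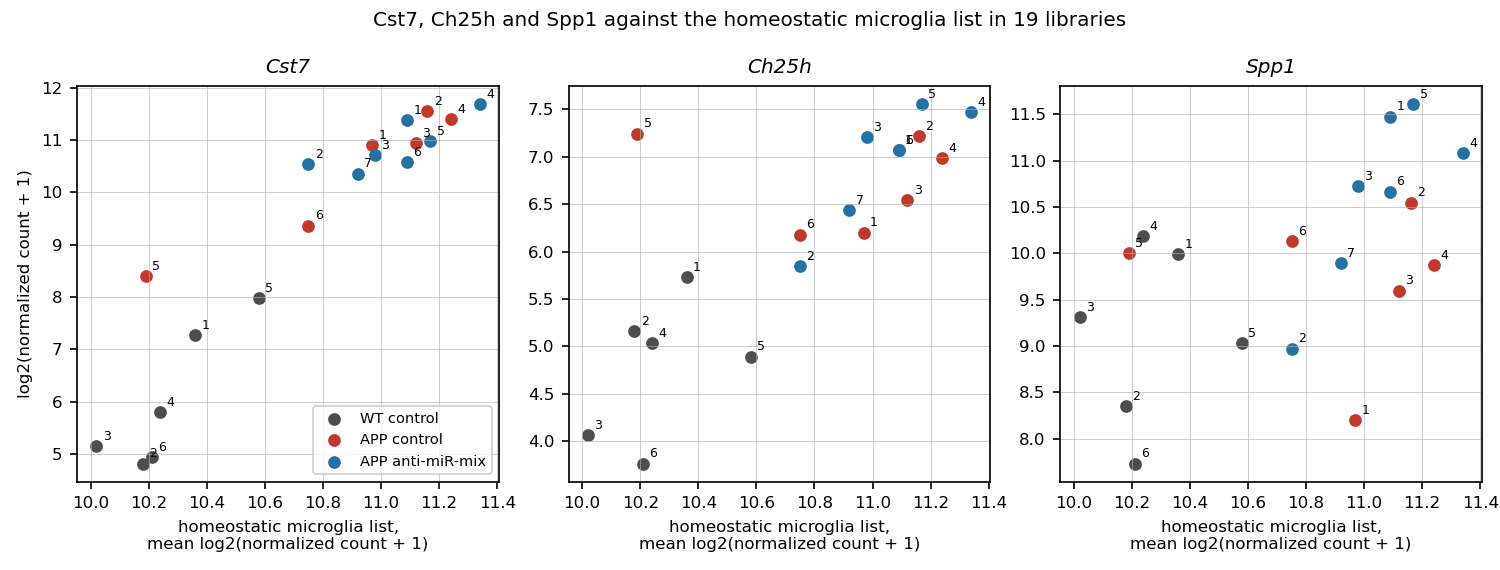
Log2(normalized count + 1) of Cst7, Ch25h and Spp1 against the mean of the homeostatic microglia list in all 19 libraries, coloured by group and numbered by replicate. The points of Cst7 follow the list across libraries, APP control 5 lies high for Ch25h at a list level among the wild-type values, and the points of Spp1 scatter widely in each group.

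By their mean r with the 10 genes over the 13 transgenic libraries, the genes most alike outside the 10 were Pycard (0.82), Cd84 (0.82), Hvcn1 (0.81), Dennd1c (0.81), Lat2 (0.81), Sh3bp2 (0.81), Wdfy4 (0.81), AU020206 (0.80), Gm2a (0.80) and Ikzf1 (0.80). None of them is in the lists used above. The levels of Cd84, a receptor of the SLAM family on leukocytes, had means of 148 normalized counts in WT control and of 434 and 494 in the APP control and mix groups.

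Since the genes moved together, the 250 bases before their start sites were searched for 4 short motifs on both strands: GAGGAAGT, a form of the site of PU.1, the lineage factor of macrophages, TGANTCA, the AP-1 site, CACGTG, the E-box, and TCATGTG, the M-box bound by Mitf and its relatives. RefSeq promoters on GRCm38.p6 were matched for 8 of the 10 genes, all except St14 and Lpl, with 10 start sites. The PU.1 letters were found in 1 gene (2.44% of all 32851 promoters hold them), the AP-1 letters in 1 gene (6.75%), and the E-box (6.02%) and M-box (3.25%) in none. These counts say which letters are in these windows and nothing of the binding of a factor. The pair of promoters with a match are printed 5′ to 3′ with the match in capitals, for Itgax chr7:128129300-128129549 (+) with the AP-1 letters 56 to 50 bases before the start, and for Spp1 chr5:104434861-104435110 (+) with the PU.1 letters 113 to 106 bases before it.
Itgax promoter: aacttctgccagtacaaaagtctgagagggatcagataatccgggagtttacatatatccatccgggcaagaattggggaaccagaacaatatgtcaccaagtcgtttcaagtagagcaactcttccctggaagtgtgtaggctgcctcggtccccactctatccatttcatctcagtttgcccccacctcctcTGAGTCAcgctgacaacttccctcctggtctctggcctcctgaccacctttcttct
Spp1 promoter: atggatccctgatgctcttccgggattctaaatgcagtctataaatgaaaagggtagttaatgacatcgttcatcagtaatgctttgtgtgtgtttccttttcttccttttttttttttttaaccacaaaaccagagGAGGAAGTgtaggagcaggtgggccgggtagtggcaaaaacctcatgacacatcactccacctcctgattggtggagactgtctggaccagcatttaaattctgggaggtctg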

How the data were processed

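Per the labels and the study's methods, polyadenylated RNA of hippocampal CA1 was sequenced as 50 bp single-end reads, and the authors made raw read counts per Ensembl gene by aligning to mm10 with STAR (2.5.2b) and counting with featureCounts of Subread (1.5.1), after FastQC (0.11.5). The annotation release and the strand setting are not given in the sources used here. The authors also deposited 1 table of log2 normalized values, which is an alternative here. It differs from log2 CPM along a profile scaled by a whole number per library from 1 to 5 (here the adjustment number), whose meaning was not stated. Within each group this number rises or stays level as the replicate number rises. The libraries with the number 4 are WT control 5, APP control 5 and 6 and APP anti-miR-mix 6 and 7.

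The 10 genes and all lists were chosen with earlier results of these data known. Named beside the 10 were tested partner genes, genes among the 3 most abundant of those other lists that bear on a result (1 is not reported here), the 10 most alike genes and genes that check labels. Mef2c was named for its part in a list's sum after its values were seen. Symbols came from GENCODE M21, which matched 48349 identifiers. Of 48709 genes, 14228 had no count in any library. No library was a repeat of another: even the most alike pair in a group had 4.60 as its chi-square over genes with counts, per gene, which exceeds sampling noise. Nothing in the labels ties libraries to separate animals, so p-values measure the spread between libraries.

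DESeq2 (1.42.0) was run with all 3 groups in 1 fit, unshrunken log2 fold changes, independent filtering and Benjamini-Hochberg adjustment over all genes tested, at 0.05. DESeq2 replaced no count of the 10 genes. Correlations used log2(normalized count + 1), centred within group, with 100000 permutations within groups, two-sided. Alternatives were edgeR (4.0.16), limma (3.58.1) on the deposited table, other scalings, filters and covariates, a replicate block and leaving out libraries. R (4.3.3) and Python (3.11.15) were used, and the tests were tried on simulated data. The depth of 19362343 to 37018917 counts per library sets the precision of low genes such as Ch25h and St14.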

Additional observations from a re-analysis of the deposited data

Results flagged for a closer look

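None of the 10 genes had a library that stood clear of its group by the gap between its nearest neighbour and the range of the group, in 30 groups of values examined. In the same way 36 sums of cell type marker lists were examined, where chance alone marks about 1 in 20, and 6 stood out. The sum of the monocyte and neutrophil list was 3057 normalized counts in APP control 5, where the next highest library of the group had 118.2, and the endothelium list had 5625 there, against 4467. The choroid plexus list had 2630 in WT control 5, against 1015 in the next library, and 1872 in APP anti-miR-mix 6, against 932.6. WT control 5 also had the highest sum of the astrocyte list, 1.969e+05 against 1.683e+05. The T and B lymphocyte list had 226.6 in WT control 1, against 94.43 in the next wild-type library. WT control 1 and WT control 5 are also the wild-type libraries with the highest Cst7 and Clec7a, and the part of these other cells in the levels of the 10 genes was not tested.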

How the results depend on the processing

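The number of the 10 genes called moved by less than 1.5 times under every alternative run. In APP control against WT control 7 or 8 of the 10 genes were called throughout, in APP anti-miR-mix against WT control 8 or 9, and between the transgenic groups 0. The gene lost in the first was Lpl, with edgeR (adjusted p = 0.0681), limma on the deposited table (0.0656) and the adjustment number as a factor (0.0711), and without WT control 2 or 3 or APP control 1, 3 or 4 (adjusted p from 0.0515 to 0.0797). The gene lost in the second was Spp1, with the adjustment number as a factor (log2 fold change 1.29, adjusted p = 0.053). No log2 fold change against WT control changed sign. In APP anti-miR-mix against WT control, limma on the deposited table gave 2.15 for St14 (2.93 by DESeq2) and 1.45 for Ch25h (2.16), and without WT control 1 and 5 Clec7a had 3.24 (2.59) and Cst7 5.76 (4.44), the latter 5.05 without WT control 5 alone. Correlated pairs numbered 27 to 40 and relations to other measures 16 to 21 when single libraries were left out.

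Between the transgenic groups, where no gene was called, signs near 0 turned. Without APP control 5 and 6 together the log2 fold changes were -0.0111 for Itgax, -0.259 for Cst7, -0.00546 for Axl, -0.0731 for Gpnmb, -0.256 for St14 and -0.0549 for Lpl. With the choroid plexus score as a covariate Cst7 had -0.0381. Gpnmb had -0.00094 with limma on the deposited table and -0.00886 with the adjustment number as a factor. With single libraries left out, Cst7 ran from -0.0333 to 0.40, Gpnmb from -0.104 to 0.329, Csf1 from -0.104 to 0.0306 and St14 from -0.0916 to 0.223. The cause was not tested. The adjusted p of the 10 genes in this comparison was at least 0.759 (Spp1, without APP control 5 and 6) under all alternatives.

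Libraries share replicate numbers across groups. Of 18 same-numbered pairs 10 had correlations over 0.1 (range -0.125 to 0.347) and 5 matched their own number best. The labels do not say what a number shares, and these values do not settle it. The main fit therefore did not pair libraries by number, and a block by number was an alternative. With the replicate block, 8, 0 and 9 of the 10 genes were called in the same order of comparisons, Csf1 had a log2 fold change of 0.00289 between the transgenic groups, and 1222 genes in all were called in APP control against WT control, against 908. A sex covariate was not run, since Y-linked genes were present in all 19 libraries. Over the whole table, edgeR called 621 genes between APP control and WT control, against 908 by DESeq2, and between the transgenic groups 14 genes were called without APP control 5 and 6, against 0.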
